A study of Mus musculus with 80 samples.

Results

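The ribosome-bound RNA of *Cx3cr1*-expressing cells was compared with the RNA in the cleared lysate of the same dissociated brain cells in 4 mice, numbered 946, 947, 948 and 949. Each mouse gave 1 Cell-Input and 1 Cell-TRAP library from its unsorted cell suspension, and these 8 libraries were taken by their labels from the 80 libraries of the study. All genes were compared, and each TRAP library was paired with the Input library of its own mouse. Every mouse used here was Cx3cr1(Jung)-cre/Ert2+;NuTRAP+ and had been given tamoxifen daily by intraperitoneal injection (100 mg/kg) at about 3 months of age. No group therefore lacked the Cre, the tag or the drug. The brain was taken some months after the drug, and the paper states that each experimental group held males and females. The Cre sits in the *Cx3cr1* locus, so recombination is open to any cell that expresses this chemokine receptor, which includes macrophages at the borders of the brain as well as microglia.

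The NuTRAP allele, once recombined, makes an eGFP-tagged ribosomal protein L10a together with a labelled nuclear membrane protein built on RanGAP1. Translating ribosome affinity purification (TRAP) pulls the tagged ribosomes down with an anti-GFP antibody, and the mRNA held on them is sequenced. Here 1 hemisphere was digested with papain, dissociated mechanically with heating and cleared of debris, and the cells were then homogenised in a buffer with cycloheximide. A part of the cleared lysate was kept as Input and the rest went to the pull-down. Microglia are the resident macrophages of the brain parenchyma. They clear debris and synapses through complement, Fc and scavenger receptors, sense nucleotides and damage through purinergic and toll-like receptors, and depend on CSF1R signalling and the transcription factor PU.1.

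The libraries held 12940459 to 16332332 counts in Cell-Input and 12214821 to 17220508 in Cell-TRAP, so depth did not separate the groups. The 100 genes with the most counts took 16.7 to 18.1% of each Input library and 24 to 24.4% of each TRAP library. Levels below are library-scaled counts (CPM) after TMM scaling, and they compare a gene between libraries, not one gene with another. Fold changes are log2 of TRAP over Input within the mouse, from edgeR's quasi-likelihood test across all tested genes, and a gene was called when its Benjamini-Hochberg adjusted p was below 0.1 and its change exceeded 2-fold.

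Both genes of the tag were read first, since their sequences are in the transgene. *Rangap1* stood at 138, 135, 123 and 131 CPM in the Input of mice 946 to 949 and at 529.7, 427, 451 and 465 CPM in TRAP. The groups were far apart, with a log2 fold change of 1.83 (SE 0.0746, adjusted p = 9.67e-10). *Rpl10a* stood at 149, 163, 151 and 164 CPM in Input and at 282, 244, 278 and 259 CPM in TRAP. Its groups did not overlap either, but its log2 fold change of 0.76 (SE 0.0781, adjusted p = 2.85e-06) was below 2-fold and it was not called. Reads of the transgene and of the mouse's own 2 genes cannot be told apart in these counts.

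Of 14805 genes tested, 2596 were higher in TRAP (17.5%) and 4605 were lower (31.1%), so 48.6% of the tested genes were called. The direction was the same in all 4 mice for 2584 of the genes called higher and for 4551 of those called lower. All TRAP libraries lay above all Input libraries for 2547 of the higher genes and below them for 4306 of the lower genes. Without regard to calls, TRAP lay wholly above Input for 38.2% of tested genes and wholly below for 37.6%. The sizes were not symmetric. A change past 4-fold was reached by 819 of the higher genes and 2800 of the lower genes, and one past 16-fold by 2 and 277. For 214 tested genes 1 fraction lay wholly at the detection floor, where the size of a fold depends on the prior count. Of the 2 rises past 16-fold, 1 had 0 counts in every Input library. The other, *A330093E20Rik* (4.35), was called lower in the second suspension described below (-2.68). The median over all genes was -0.01. When the authors' log2 values were tested with limma in place of the counts, that median moved by -0.50 and the split became 1404 higher and 5795 lower, so a list's median is best read against the median of all genes. Both fractions of a mouse came from the same lysate and so from the same cells. A lower value can mean RNA of untagged cells or RNA held less on tagged ribosomes. These counts cannot tell the 2 apart.

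**Figure D1:**
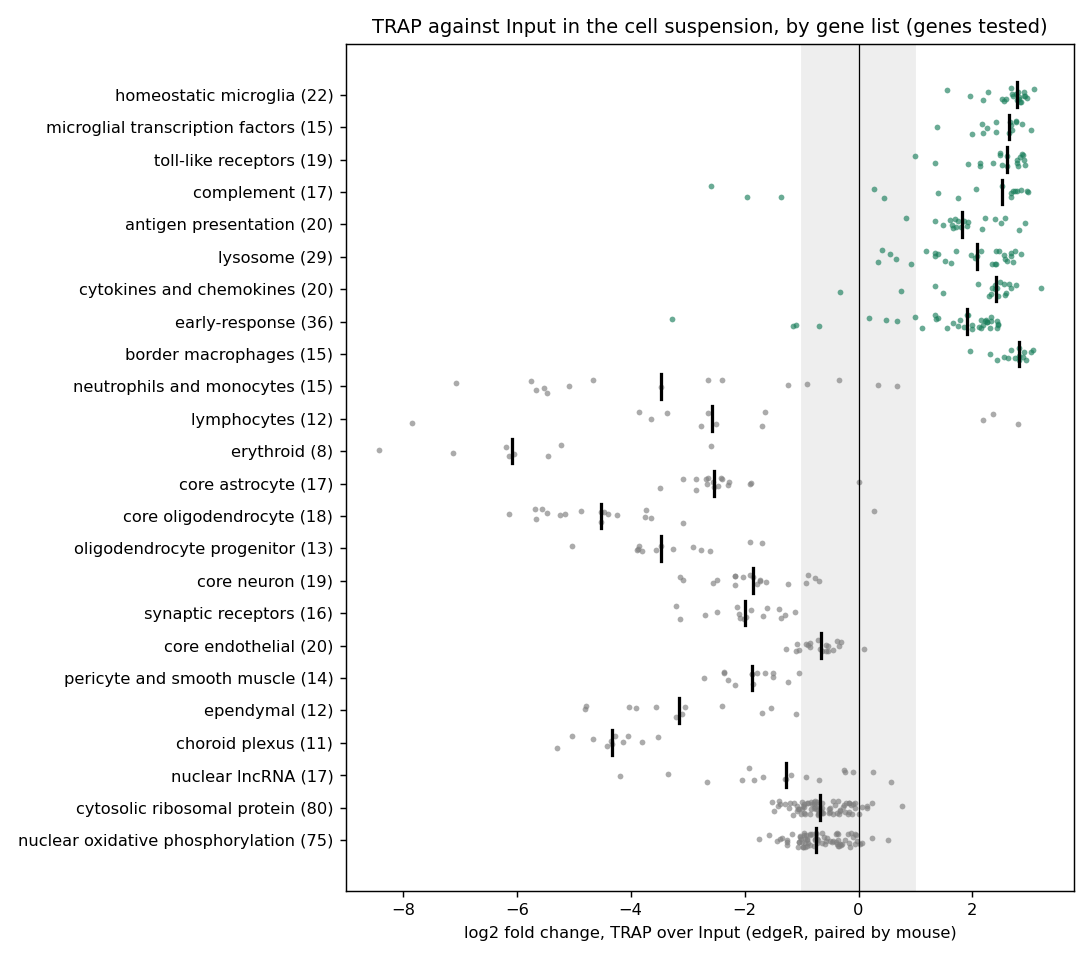
Log2 fold change of TRAP over Input in the cell suspension (horizontal axis) for every tested gene of 24 gene lists (rows); each point is 1 gene, the black bar is the median of the list and the grey band covers changes within 2-fold. The microglial lists sit to the right (homeostatic median 2.78), and the oligodendrocyte (median -4.52) and erythroid (median -6.09) lists lie farthest to the left.

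The homeostatic microglial genes all rose. All 22 members were called higher, with a median log2 fold change of 2.78 and values from 1.56 to 3.08. *Csf1r*, the receptor for the growth factor on which microglia depend, stood at 1512, 1933, 1728 and 1638 CPM in Input and at 12305, 11570, 11991 and 11645 CPM in TRAP. The 4 TRAP libraries lay close together and far above every Input library (log2 fold change 2.81, SE 0.103, adjusted p = 4.26e-10). *Sparc*, a secreted matrix protein, had the smallest rise of the list, from 1571, 2021, 1951 and 2320 to 5567, 5499, 5721 and 6157 CPM, a log2 fold change of 1.56 (SE 0.0958, adjusted p = 3.12e-08). Its groups were still apart in every mouse.

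The driver gene of the Cre behaved like the other microglial receptors. *Cx3cr1*, the receptor for neuronal fractalkine, stood at 408, 523, 561 and 508 CPM in Input and at 3426, 3159, 3840 and 3569 CPM in TRAP, a log2 fold change of 2.81 with no overlap. Over the 282 tested genes of the study's own microglial marker list, which came from a published meta-analysis of other data, 279 were higher and 1 was lower, with a median of 2.68. The lower gene was *Gm14023*, at 0.389 to 1.02 CPM in Input and 0 to 0.464 CPM in TRAP, which overlap, and its call was lost without mouse 948 (log2 fold change -1.55, or -1.11). These markers together took 4.23, 4.92, 4.93 and 4.67% of the Input counts of mice 946 to 949 and 19.4, 19.6, 19.9 and 20.1% of the TRAP counts. The share thus grew by a factor of 4.57, 3.98, 4.05 and 4.29, with all mice close together.

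**Figure D2:**
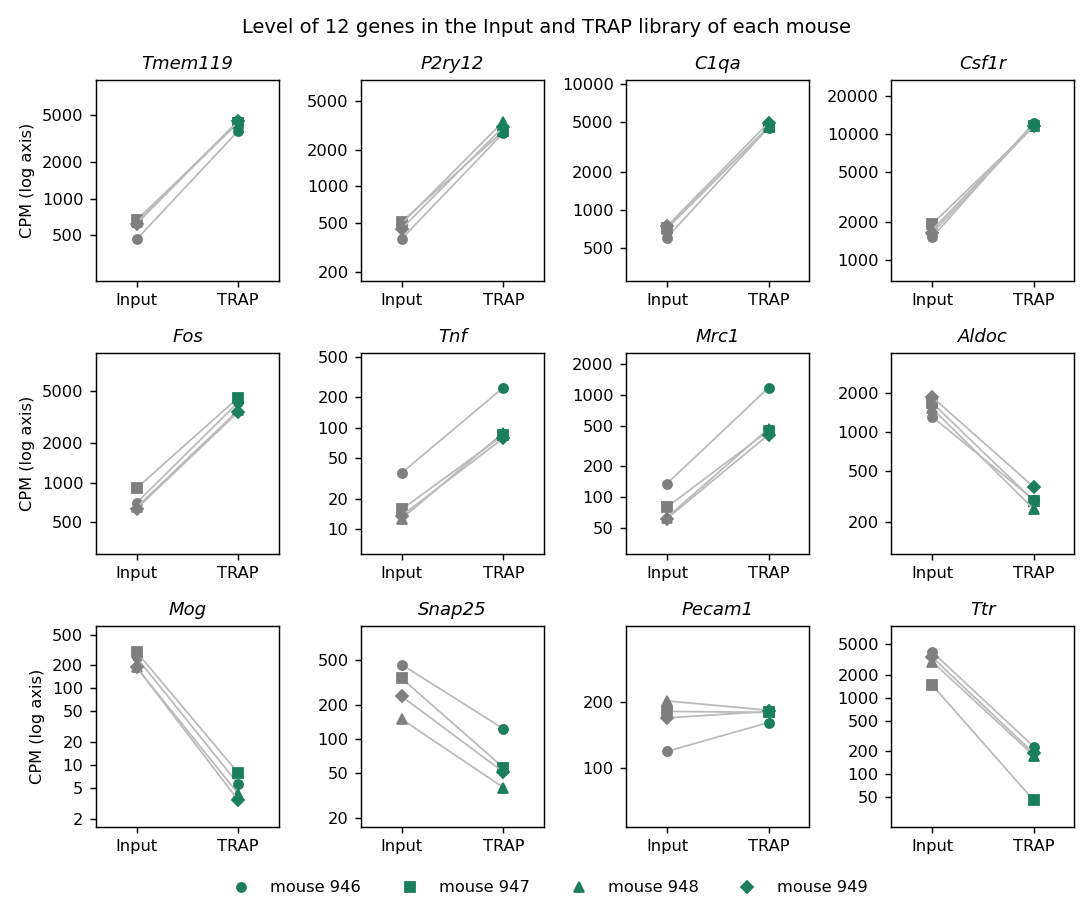
CPM (log axis) of 12 genes in Input and TRAP of the cell suspension; each line joins the 2 libraries of 1 mouse. *Tmem119*, *P2ry12*, *C1qa*, *Csf1r*, *Fos*, *Tnf* and *Mrc1* climb in every mouse, *Aldoc*, *Mog*, *Snap25* and *Ttr* drop in every mouse, and *Pecam1* stays about level (log2 fold change 0.09).

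Among 15 tested microglial transcription factors, all were higher, with a median of 2.65. *Sfpi1*, the symbol used in the files for the gene of PU.1, stood at 47.5, 59.1, 60.5 and 62.8 CPM in Input and at 455, 415, 515 and 490.0 CPM in TRAP (log2 fold change 3.03, SE 0.0882, adjusted p = 1.36e-10). *Irf8*, a partner of PU.1, went from 99.5, 93.8, 109.5 and 111 to 776, 633, 844 and 786 CPM (2.87, SE 0.0769, adjusted p = 1.27e-10). *Sall1*, a regulator that marks microglia among brain macrophages, rose less, from 194, 248, 254 and 226 to 1020, 958, 1162 and 1063 CPM, a log2 fold change of 2.19. None of the 3 showed any overlap between the fractions. *Cebpa* (2.65) lay between them.

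The sequences just upstream of the transcription start were read for motifs, because the genes of the PU.1 programme and those of myelinating cells moved in opposite directions. RefSeq promoters (GRCm38.p6, the 250 bases before the start) were matched by gene for 2085 of the higher genes and 3472 of the lower genes. The PU.1-type motif GAGGAAGT was searched on both strands, as was the SOX-type motif ACAATGG, and neither motif contains the other. GAGGAAGT was found in 4.65% of the matched higher genes, 1.73% of the matched lower genes and 2.78% of the 11711 matched tested genes, with 1.27, 1.31 and 1.27 promoters per gene. Among the study's microglial markers it was found in 10.2% of 216, at 1.3 promoters per gene. Of all 32851 promoters of the table, 2.44% held it. ACAATGG was found in 2.06% of the higher, 2.59% of the lower and 2.19% of the tested genes, in 5.37% of the 149 matched oligodendrocyte markers (which have 1.45 promoters per gene), and in 3.02% of all promoters. A match is a description of the letters, not a binding site. Motif and direction did not always go together. GAGGAAGT was also found in *Ccdc153*, which fell (-4.03), and in *Rpl13a*, which was not called (-0.76). ACAATGG was also found in *Ugt1a2*, which rose (2.43). The 4 promoters below are ones where they did go together. Shown are 2 promoters of genes that rose, *C1qc* (complement C1q chain; chr4:136892915-136893164, minus strand) and *Havcr2* (the checkpoint receptor TIM-3; chr11:46454681-46454930, plus strand), and 2 of genes that fell, *Ermn* (a myelin cytoskeletal protein; chr2:58052865-58053114, minus strand) and *Gjb1* (connexin 32 of oligodendrocytes; chrX:101383482-101383731, plus strand). All are written 5′ to 3′ on the strand of the gene, and capitals mark the PU.1-type motif in the first pair and the SOX-type motif in the second, as its reverse complement in *C1qc* and *Gjb1*.
C1qc: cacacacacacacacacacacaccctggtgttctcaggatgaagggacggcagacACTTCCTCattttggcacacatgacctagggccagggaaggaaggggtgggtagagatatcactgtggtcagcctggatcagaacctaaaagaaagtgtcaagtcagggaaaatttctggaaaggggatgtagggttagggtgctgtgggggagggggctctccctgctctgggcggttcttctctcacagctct
Havcr2: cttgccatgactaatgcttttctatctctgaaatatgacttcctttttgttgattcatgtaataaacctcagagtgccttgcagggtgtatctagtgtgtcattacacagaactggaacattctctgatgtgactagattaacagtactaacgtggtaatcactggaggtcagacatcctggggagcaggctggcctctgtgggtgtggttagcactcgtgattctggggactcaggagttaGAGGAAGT
Ermn: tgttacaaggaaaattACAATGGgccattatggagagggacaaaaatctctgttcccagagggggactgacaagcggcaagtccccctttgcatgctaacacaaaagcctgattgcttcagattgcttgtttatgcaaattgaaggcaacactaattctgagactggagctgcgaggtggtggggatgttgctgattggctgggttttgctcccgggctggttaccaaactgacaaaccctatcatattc
Gjb1: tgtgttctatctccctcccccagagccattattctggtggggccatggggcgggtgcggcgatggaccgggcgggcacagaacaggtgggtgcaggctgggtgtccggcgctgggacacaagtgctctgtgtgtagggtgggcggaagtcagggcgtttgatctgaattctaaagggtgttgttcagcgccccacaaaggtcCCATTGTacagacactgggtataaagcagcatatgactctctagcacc
The capitals start 195, 8, 234 and 48 bases before the start site in *C1qc*, *Havcr2*, *Ermn* and *Gjb1*.

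Those 4 genes were far apart between the fractions. *C1qc* stood at 529, 667, 642 and 665 CPM in Input and at 4192, 4259, 4332 and 4498 CPM in TRAP, a log2 fold change of 2.79. *Havcr2* went from 59.7, 90.7, 73.8 and 67.6 to 529, 623, 619 and 593 CPM (3.03, SE 0.0859, adjusted p = 1.32e-10). Both were higher in TRAP in every mouse. *Ermn* fell from 387, 392, 265 and 256 to 5.42, 7.7, 5.74 and 5.8 CPM, a log2 fold change of -5.69, and *Gjb1* from 81.3, 68.1, 54.5 and 55.5 to 1.81, 0.556, 1.04 and 1.6 CPM, a log2 fold change of -5.66. For both, every TRAP library was below 10 CPM while no Input library was.

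Receptors through which microglia sense their surroundings rose with the identity genes. The complement list had 12 of 17 members higher and 3 lower, with a median of 2.52. *Itgam*, the alpha chain of complement receptor 3, stood at 294, 353, 339.9 and 341 CPM in Input and at 2661, 2355, 2728 and 2751 CPM in TRAP (2.98, SE 0.0942, adjusted p = 1.84e-10). *C1qa* and *C1qb* rose by 2.75 and 2.67. The 3 members that fell are brakes on the pathway. *Cd59a*, which blocks the membrane attack complex, went from 33.4 to 48.8 CPM in Input to 9.5 to 14.7 CPM in TRAP (log2 fold change -1.95), *Serping1*, the C1 inhibitor, changed by -2.59, and *Cd55* by -1.36 with overlapping groups.

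All 19 tested toll-like receptor genes and adaptors were higher, with a median of 2.60. *Tlr7*, the endosomal receptor for single-stranded RNA, stood at 77.4, 129, 89.5 and 74.8 CPM in Input and at 668, 732, 674 and 604 CPM in TRAP (2.88, SE 0.103, adjusted p = 3.66e-10). *Unc93b1*, which carries such receptors to endosomes, rose by 2.78, *Cd14* by 2.80 and *Ly86* by 2.84. Of 7 Fc receptor genes 6 were higher and none was lower, with a median of 2.90. *Fcgr1*, the high-affinity receptor, went from 63.5, 71.9, 76 and 67.4 to 571, 512, 594 and 562 CPM, a log2 fold change of 3.01. *Fcgr2b* (2.93), *Fcgr3* (2.90) and the shared signalling chain *Fcer1g* (2.82) were close to it.

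The purinergic list had members in both directions. Of its 11 members 7 were higher and 4 were lower, with a median of 2.24. *P2ry12*, the ADP receptor that guides microglial processes, stood at 372, 513, 496 and 451 CPM in Input and at 2747, 2840, 3400 and 3076 CPM in TRAP, a log2 fold change of 2.72. *P2ry13* (2.91), the ATP-gated channel *P2rx7* (2.24) and the ectonucleotidase *Entpd1* (2.68) were higher as well. The adenosine receptor *Adora1* fell from 157, 171, 129.8 and 154 to 17.5, 19.3, 12.3 and 22.5 CPM, a log2 fold change of -3.11 (SE 0.1, adjusted p = 2.07e-10). *Adora2a* (-2.03), *Nt5e* (-3.06), which makes adenosine, and *P2ry14* (-1.67) were also lower, and none of the 4 overlapped between the fractions.

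Receptors and ligands of the signals that maintain microglia were set side by side. Among 9 receptors 8 were higher, with a median of 2.54. *Tgfbr1*, a receptor chain for TGF-beta, stood at 377, 529, 491 and 415 CPM in Input and at 2644, 2883, 3270 and 2832 CPM in TRAP, a log2 fold change of 2.69. *Trem2* (2.86), *Sirpa* (2.21), *Tgfbr2* (2.02), *Mertk* (1.96) and *Cd200r1* (2.54) were also higher. *Axl*, a receptor for GAS6 that astrocytes and vessels express too, was the exception, at 132, 166, 152 and 166 CPM in Input and at 144, 103, 118 and 127 CPM in TRAP, which overlap (log2 fold change -0.33, SE 0.109, adjusted p = 0.0156).

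Of the 12 ligands 2 were higher and 6 lower, with a median of -0.67. *Il34*, a neuronal ligand of CSF1R, fell from 10.7, 10.4, 10.9 and 10.8 to 3.27, 2.88, 3.53 and 2.39 CPM, a log2 fold change of -1.83 (SE 0.181, adjusted p = 2.05e-06). The fractalkine gene *Cx3cl1* (-1.15), *Cd200* (-1.29), *Tgfb2* (-1.94), *Clu* (-2.47) and *App* (-1.02, or -0.92 and not called without mouse 947) were lower too. Both ligands that rose are also made by macrophages: *Tgfb1* went from 77.3, 103, 116 and 97.1 to 437, 445, 552 and 515 CPM (2.32, SE 0.0826, adjusted p = 3.6e-10), and *Pros1*, a ligand of MERTK, from 86.3, 118, 122 and 110.2 to 512, 481, 615 and 603 CPM (2.35, SE 0.0937, adjusted p = 8.03e-10). *Csf1*, the other ligand of CSF1R, stood at 62.4, 84.2, 59.4 and 61.8 CPM in Input and at 56.6, 49, 52.4 and 54.9 CPM in TRAP, a log2 fold change of -0.32 that was not called. *Cd47* (0.16) and *Gas6* (0.60) were not called.

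Genes of the lysosome and of antigen presentation rose too, with lower medians than the receptor lists. Of 29 lysosomal genes 24 were higher and none lower, with a median of 2.08. *Ctsd*, an aspartic protease of the lysosome, stood at 2052, 2375, 2475 and 2613 CPM in Input and at 9468, 10018, 10879 and 11807 CPM in TRAP (2.15, SE 0.0882, adjusted p = 9.93e-10). *Ctss*, a protease enriched in myeloid cells, rose by 2.68, and *Psap*, the saposin precursor, which many cell types make, by 1.35. Of 20 antigen presentation genes 19 were higher, with a median of 1.82. *B2m*, the light chain of class I molecules, went from 368, 394, 383 and 433 to 1808, 1775, 1787 and 1953 CPM (2.22, SE 0.0763, adjusted p = 2.97e-10), and the heavy chains *H2-D1* (1.90) and *H2-K1* (1.60) rose less. Reads of class I genes can be shared between near-identical copies, so the split between them is uncertain.

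Of 23 genes of the disease-associated microglial programme 15 were higher and 1 was lower, with a median of 2.04. *Ctsb* went from 1017, 1031, 1012 and 1029 to 4675, 3829, 4273 and 4191 CPM, a log2 fold change of 2.05. *Apoe*, which astrocytes express strongly, stood at 3976, 4214, 4284 and 4705 CPM in Input and at 6727, 3799, 4177 and 4288 CPM in TRAP. Its groups overlapped (log2 fold change 0.11), with mouse 946 alone clearly higher in TRAP. *Fth1*, the ferritin heavy chain, ran against the list, from 2397, 2806, 1960 and 3133 to 490.0, 417, 422 and 458 CPM, a log2 fold change of -2.51. Of 20 interferon-stimulated genes 9 were higher and 1 was lower, with a median of 0.76. *Bst2* (1.93) and *Ddx58* (1.46) were higher, *Rsad2* was lower (-1.24, or -0.98 and not called without mouse 949) and *Ifitm3* was about level (-0.07).

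The early-response genes, which cells switch on within minutes of a stimulus, formed another group that rose. Of 36 tested members 28 were higher and 3 were lower, with a median of 1.91. *Fos*, a subunit of AP-1, stood at 699.6, 907, 649 and 633 CPM in Input and at 4117, 4470, 3576 and 3470 CPM in TRAP (log2 fold change 2.44). *Jun*, its partner, went from 1063, 1188, 1053 and 954 to 5427, 4771, 4168 and 4093 CPM (2.11, SE 0.0927, adjusted p = 1.73e-09). *Zfp36*, which destabilises cytokine mRNAs, rose by 2.26 and *Rhob* by 1.92. In each of these genes the lowest TRAP library was above the highest Input library. The list together took 0.911 to 1.22% of Input counts and 2.74 to 3.67% of TRAP counts. The members that fell are best known from neurons. *Arc*, a synaptic plasticity gene, fell from 31.8, 30.8, 20.5 and 22.1 to 3.95, 3.25, 1.31 and 2.68 CPM, a log2 fold change of -3.27 (SE 0.168, adjusted p = 6.54e-09), and *Nr4a2* (-1.15, overlapping groups) and *Npas4* (-1.10, at or below 1.36 CPM in every library) were also called lower. These last 2 calls were lost without mouse 949 (-0.99 and -0.75), and that of *Npas4* also without mouse 946, where it fell just short of 2-fold.

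Of 20 cytokine and chemokine genes 18 were higher and none was lower, with a median of 2.41. *Ccl3*, a chemokine, stood at 55.8, 69.2, 51.7 and 54 CPM in Input and at 376, 328, 294 and 287 CPM in TRAP, a log2 fold change of 2.48. *Il16* rose by 2.55. *Il1a* went from 53.3, 38.5, 29.2 and 37.8 to 297, 162, 161 and 166 CPM (2.29, SE 0.0887, adjusted p = 6.39e-10), with mouse 946 highest in both fractions.

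Border macrophages, which line the vessels and meninges, express *Cx3cr1* and would carry the tag. All 15 of their tested markers were higher, with a median of 2.81, about that of the homeostatic microglial list. *Mrc1*, the mannose receptor CD206, stood at 135, 79.5, 62.9 and 61.4 CPM in Input and at 1178, 446, 468 and 409 CPM in TRAP. Mouse 946 was the highest in both fractions, and the fractions did not overlap. The same order held for *F13a1*, the coagulation factor XIII chain, at 60.4, 28.9, 28.9 and 29.6 CPM in Input and 567, 221, 247 and 232 CPM in TRAP (3.06, SE 0.0793, adjusted p = 1.17e-10). *Cd163*, a haemoglobin scavenger receptor, rose by 2.81 and *Stab1* by 2.68. The list took 0.488, 0.247, 0.266 and 0.257% of TRAP counts in mice 946 to 949 against 0.0847, 0.0594, 0.0555 and 0.0525% of Input counts. The part of such macrophages in the rise of genes that they share with microglia was not tested.

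Among genes called higher that rose in all 4 mice and reached 10 CPM or more in the higher fraction, the strongest rises were near 8-fold and closely spaced. *Lpar5*, a lysophosphatidic acid receptor, led at 3.95, 6.38, 7.39 and 5.83 CPM in Input and 46.1, 48.4, 65.1 and 49.1 CPM in TRAP (log2 fold change 3.15, SE 0.114, adjusted p = 3.89e-10). *Slamf6* (3.15), *Susd3* (3.10), the fructose transporter *Slc2a5* (3.08), *F13a1* (3.06), *Folr2*, *Fcrl1*, *Havcr2* and *Sfpi1* (each 3.03), *Cd209b*, *Tlr12* and *Dusp27* (each 3.01) followed. *Slc2a5* went from 70, 90.3, 102 and 101 to 673, 729, 837 and 823 CPM. Each of these genes was higher in TRAP than in Input in all 4 mice, and in none did the fractions overlap.

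Oligodendrocyte markers had the lowest median of the brain cell lists examined. Of 18 core markers 17 were lower, with a median of -4.52. *Cldn11*, the tight junction protein of myelin, fell from 752, 862, 584 and 505 to 16.5, 16.5, 13.6 and 10.3 CPM (-5.56, SE 0.0908, adjusted p = 3.26e-11). *Mbp*, a main protein of myelin, fell from 3367, 4941, 3004 and 5979 to 106, 276, 139 and 267 CPM (-4.52, SE 0.136, adjusted p = 1.52e-10). For both genes every Input library was far above every TRAP library. *Enpp2* changed by -4.52. *Trf*, the transferrin gene that oligodendrocytes express strongly, was the exception, at 2525, 2372, 1934 and 1876 CPM in Input and 2698, 2395, 2672 and 2745 CPM in TRAP, which overlap (0.28, SE 0.103, adjusted p = 0.0253). Among the strongest falls were further myelin genes, *Klk6* (-6.41), *Opalin* (-6.13), *Ugt8a* (-5.67) and *S1pr5* (-5.54).

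The study's longer oligodendrocyte list gave 177 lower and 4 higher of 194, with a median of -3.49, and it took 4.88 to 6.23% of Input counts and 0.559 to 0.633% of TRAP counts. The 4 higher genes were *Sema4d*, from 169, 186, 142 and 144 to 492, 455, 542 and 507 CPM (1.65), *Dock10* (1.46), *Cd82* (1.13) and *Rhog* (1.05). None of them overlapped between the fractions, but *Rhog* was not called without mouse 948 (0.98) or mouse 949 (0.90). All 13 oligodendrocyte progenitor markers were lower, with a median of -3.46. *Pdgfra*, the receptor that defines these cells, fell from 39.5, 28.6, 24.9 and 38.4 to 2.66, 3.15, 1.45 and 1.96 CPM (-3.85, SE 0.175, adjusted p = 2.27e-09), and *Gpr17* by -3.81 and *Vcan* by -3.46. *Cspg4*, which pericytes also express, changed by -1.69.

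Astrocyte markers fell by a smaller factor. Of 17 core markers 16 were lower, with a median of -2.54. *Slc1a2*, the main glutamate transporter of astrocytes, fell from 2635, 3752, 2922 and 3444 to 902, 808, 791 and 875 CPM, a log2 fold change of -1.91. *Sparcl1* fell from 3006, 3760, 3576 and 4281 to 729, 589, 619.8 and 822 CPM (-2.41, SE 0.109, adjusted p = 2.25e-09). *Glul*, glutamine synthetase, was the exception, at 3800, 4607, 3915 and 4115 CPM in Input and 4261, 4812, 3744 and 3748 CPM in TRAP, which overlap fully (0.01). The study's astrocytic list had 132 of 138 lower and 1 higher, with a median of -2.39, and it took 5.05 to 6.6% of Input counts and 1.16 to 1.38% of TRAP counts. The higher gene was *Abcd2*, a peroxisomal transporter, from 49.9, 71.6, 59.5 and 68.7 to 142, 150.3, 190.2 and 188 CPM (1.43, SE 0.094, adjusted p = 5.73e-08).

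The neuronal markers held a small share of the suspension's Input counts, a share that also depends on how many genes are listed. The study's neuronal list took 0.315 to 0.563% of Input counts and 0.0558 to 0.136% of TRAP counts, and 86 of 96 tested members were lower, with a median of -1.86. Of 19 core neuronal markers 15 were lower, also with a median of -1.86. *Snap25*, a protein of vesicle fusion, fell from 450.5, 341, 149 and 237 to 123, 56, 37.4 and 51.2 CPM, so that the mouse with the most in Input also had the most in TRAP and the fractions did not overlap. *Slc17a7*, the glutamate loader of cortical vesicles, changed by -1.90, *Camk2a* by -2.03 and *Syp* by -1.73. All 16 synaptic receptor genes were lower, with log2 fold changes from -3.21 to -1.11. *Gria1*, an AMPA receptor subunit, fell from 323, 328, 308 and 375 to 46.5, 32.3, 34.5 and 40 CPM (-3.13, SE 0.0964, adjusted p = 1.66e-10). Of 12 neuroblast genes 8 were lower and 1 was higher, with a median of -2.51. The higher one, *Sox4*, a factor of immature cells, went from 65, 57.2, 78.5 and 70.9 to 131, 151, 198 and 176 CPM (1.27, SE 0.0789, adjusted p = 3.5e-08).

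Vascular cells divided. Of 20 endothelial markers 4 were lower and none higher, with a median of -0.66, so that their median stood apart from those of glia and neurons. *Slc2a1*, the glucose transporter of the blood-brain barrier, stood at 704, 1363, 1111 and 959 CPM in Input and at 661, 758, 578 and 554 CPM in TRAP, which overlap (-0.67, SE 0.125, adjusted p = 0.000393). *Bsg* (-0.38) overlapped as well and *Spock2* (-0.85) did not, and neither was called. *Pltp* was called, from 432, 515, 672 and 593 to 315, 231, 255 and 236 CPM (-1.09, SE 0.133, adjusted p = 1.31e-05), but not without mouse 948 (-0.98). Without mouse 946 *Spock2* was called (-1.01). The study's endothelial list had 76 of 235 lower and 20 higher, with a median of -0.67. The share called lower, 32.3%, was near the 31.1% of all tested genes, and that of the shorter endothelial list, 20%, was below it. The study's list took 1.78 to 2.7% of Input counts and 1.49 to 1.57% of TRAP counts. Among the higher members were *Ly6e* (2.07), *Msn* (1.97), *Klf2* (1.91), *Ets1* (1.86) and *Tgfbr2* (2.02). These are also expressed by myeloid cells. *Klf2*, a flow-responsive factor, went from 224, 325, 299 and 225 to 1021, 1115, 1044 and 830.1 CPM (SE 0.0871, adjusted p = 2.35e-09).

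**Figure D3:**
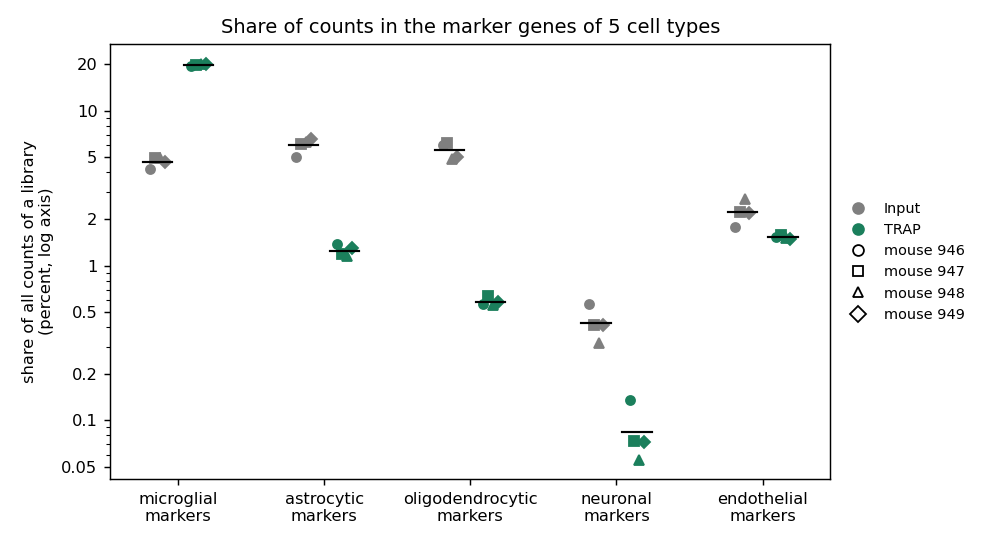
Share of all counts (percent, log axis) taken by the 5 cell type marker lists of the study in Input and TRAP. Each point is 1 library, its shape marks the mouse, and the black bars are means. The microglial share climbs from between 4.23 and 4.93% to between 19.4 and 20.1%, the other 4 shares drop in every mouse, the endothelial share by the smallest factor.

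All 14 pericyte and mural cell markers were lower, with a median of -1.87. *Pdgfrb*, their defining receptor, fell from 44.8, 53.2, 64.4 and 49.7 to 14.6, 19.4, 12.5 and 12 CPM (-1.87, SE 0.137, adjusted p = 1.43e-07). *Vtn* (-2.17), *Notch3* (-1.50) and *Rgs5* (-1.24) were lower by differing amounts, with no overlap. Of 10 fibroblast genes 9 were lower, with a median of -2.94, and *Col1a2* changed by -2.93 and *Igf2* by -2.49. All 12 ependymal genes (median -3.16) and all 11 choroid plexus genes (median -4.33) were lower. *Foxj1*, the regulator of motile cilia, fell from 107, 64.3, 105 and 108 to 8.77, 4.64, 6.02 and 6.31 CPM (-3.91, SE 0.107, adjusted p = 1.27e-10). *Ttr*, the transthyretin of the choroid plexus, fell from 3997, 1475, 2984 and 3420 to 229.8, 45.6, 176 and 188 CPM. Mouse 947 was lowest in both fractions for both genes, and *Kl* (-4.27), *Clic6* (-4.41) and *Prlr* (-3.81) gave the same mouse the lowest values.

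Red cell transcripts were nearly absent from TRAP. All 8 erythroid genes were lower, with a median of -6.09, or -5.76 with the 1 gene at the detection floor set to its bound. *Alas2*, which starts haem synthesis in red cells, fell from 210.1, 189, 186 and 388 to 0.946, 0.742, 2.35 and 2.68 CPM (-7.12, SE 0.177, adjusted p = 1e-10). *Hbb-b1*, a globin, fell from 1377, 1373, 1276 and 2208 to 11, 9.46, 28.9 and 51.6 CPM. Mouse 949 was highest in both fractions. Globin genes are near-identical copies and their counts can be split arbitrarily, so only their joint fall is given weight. The erythroid list took 0.62 to 1.01% of Input counts and 0.00525 to 0.0189% of TRAP counts.

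Of 15 neutrophil and monocyte genes 11 were lower and none higher, with a median of -3.46, or -2.65 with 5 genes at their bound. *Fn1* fell from 295, 321, 354 and 269 to 165, 127, 119 and 115 CPM (-1.24, SE 0.105, adjusted p = 4.99e-07). *Ccr2*, the receptor of classical monocytes, stood at 5.63, 3.07, 5.81 and 3.73 CPM in Input and at 9.46, 4.64, 8.58 and 6.45 CPM in TRAP and was not called (0.67). *Ly6c2* was about level (-0.35) with overlapping groups. Of 12 lymphocyte genes 9 were lower and 3 higher. Their median was -2.58, or -1.97 with 4 genes at their bound, whereas their summed share of counts was greater in TRAP, at 0.00686 to 0.00741% against 0.00274 to 0.00414% in Input. With only genes of at least 10 counts in every library of both fractions, the median turned to 2.19. That minimum drops genes nearly absent from TRAP, so the turn is no separate result. The 3 that rose were *Cd79b*, from 2.78, 3.43, 3.47 and 4.61 to 19.2, 23.8, 29.5 and 27 CPM (2.80, SE 0.141, adjusted p = 5.57e-09), *Il7r* (2.36) and *Cd4* (2.18). *Lck*, a T cell kinase, fell to 0.516, 0, 0.138 and 0 CPM (-3.85).

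Among RNAs without a long coding sequence, more genes were called lower than higher. The same held for all tested genes (31.1% lower and 17.5% higher). Of 554 tested genes annotated as miscellaneous RNA, 276 were lower and 60 higher, with a median of -1.02, against a median of 0.03 over 14155 protein-coding genes. Of 17 long noncoding RNAs, several of them retained in the nucleus, 10 were lower (58.8%) and none higher, with a median of -1.27. *Neat1*, the scaffold of paraspeckles, fell from 328, 311, 297 and 253 to 48.1, 125, 57 and 75.8 CPM (-2.04, SE 0.188, adjusted p = 1.1e-06). *Malat1*, a nuclear speckle RNA, went from 174, 214, 174 and 244 to 35.8, 163, 78.6 and 120.0 CPM, a log2 fold change of -1.18 that was not called without mouse 946 (-0.85). Mouse 947 changed least in both. *2900097C17Rik* changed by -1.27, while *Peg13* was level (-0.10). Of 15 snoRNA host genes, whose spliced RNAs carry little coding sequence, 10 were lower (66.7%) and none higher, with a median of -1.46. *Gas5* fell from 48.8, 65.4, 45.7 and 80.4 to 18.4, 25.8, 17.6 and 17.4 CPM (-1.58), *Snhg8* by -1.73, and *Snhg12* (-0.49) was not called.

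By their medians, housekeeping groups moved little or fell slightly. Of 80 ribosomal protein genes 15 were lower and none higher, with a median of -0.68. The share called lower, 18.8%, was below the 31.1% of all tested genes. *Rpl13a* stood at 475, 528, 441 and 599 CPM in Input and at 318, 298, 296 and 290.4 CPM in TRAP (-0.76, SE 0.0892, adjusted p = 9.4e-06), without overlap but short of 2-fold, while *Rps3* (-0.07) and *Rpl4* (-0.10) overlapped. Of 75 nuclear genes of oxidative phosphorylation 15 were lower (20%, also below that share) and none higher, with a median of -0.74. *Cox4i1* changed by -0.91 without overlap and *Sdha* by 0.03 with overlap. Among 39 translation factors 1 was higher and 2 were lower, with a median of -0.02. *Eif4a1*, the helicase of initiation, went from 227, 233, 215 and 207 to 506, 421, 466 and 459 CPM (1.07, SE 0.0765, adjusted p = 1.19e-07), *Tpt1* fell from 777, 769, 681 and 856 to 406, 317, 332 and 314 CPM (-1.17), and *Eef2* was level (0.04).

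The genes with the most counts changed identity between the fractions. Among the 6 largest in Input were *Mbp*, *Apoe*, *Glul* and *Scd2*, and among the 6 largest in TRAP were *Csf1r*, *Cst3*, *Ctsd*, *Ctss* and *Psap*. *Scd2*, a fatty acid desaturase, fell from 3713, 4242, 3440 and 3623 to 579, 491, 541 and 603 CPM (-2.76, SE 0.104, adjusted p = 5.29e-10). *Cst3*, cystatin C, went from 2671, 3112, 2978 and 3249 to 10430, 11140, 10312 and 11069 CPM (1.84, SE 0.0896, adjusted p = 4.15e-09). Each of these orders is of counts, which longer transcripts raise.

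A separate set of 4 mice (156, 157, 1361 and 1362), prepared as a cell suspension without transcription and translation inhibitors in the Inhibitor Comparison of the study, gave an independent measure of the same contrast. No library is shared. There, 2756 of 14636 genes were higher (18.8%) and 4506 were lower (30.8%), 49.6% in all. Of the genes called higher here, 2287 were also called higher there, which is 88.1% of this list and 83% of that list. For genes called lower the shared number was 4034, or 87.6% and 89.5%. Over the 14312 genes tested in both, Pearson's r of the log2 fold changes was 0.96 across genes, which are not independent replicates, and the median absolute difference was 0.17. The microglial marker list had a median of 2.52 there against 2.68 here, and the early-response list 1.96 against 1.91.

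In all, 11 genes were called in opposite directions in the 2 suspensions, 8 of them higher here and lower there. Of these *Alb* and *Dsp* were picked after their values were seen. *Alb*, the albumin gene, stood at 9.65, 4.11, 5.1 and 3.44 CPM in Input and at 26, 13.8, 15.6 and 6.67 CPM in TRAP, higher in TRAP in each mouse though the groups overlapped (1.45, SE 0.165, adjusted p = 6.78e-06). In the other suspension its log2 fold change was -1.18 (adjusted p = 3.17e-05). *Dsp*, desmoplakin, had 1.45 here and -2.62 there. The difference between the 2 suspensions was not tested for these genes, since their tables were normalised separately.

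The same contrast was then set against whole tissue of the same 4 mice, where TRAP and Input were taken from a homogenate without dissociation. In tissue, 1334 of 14982 genes were higher (8.9%) and 495 lower (3.3%), far fewer than in the suspension. Of the genes called higher in the suspension, 1063 were higher in tissue (40.9% of the suspension list and 79.7% of the tissue list), and of those called lower, 353 were lower in tissue (7.67% and 71.3%). The difference of the 2 contrasts was tested as an interaction over 16 libraries. It was larger in the suspension for 818 of 15572 genes (5.25%) and smaller for 5065 (32.5%), with a median of -0.33 over all genes. Without mouse 946 the first of these counts was 1255.

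**Figure D4:**
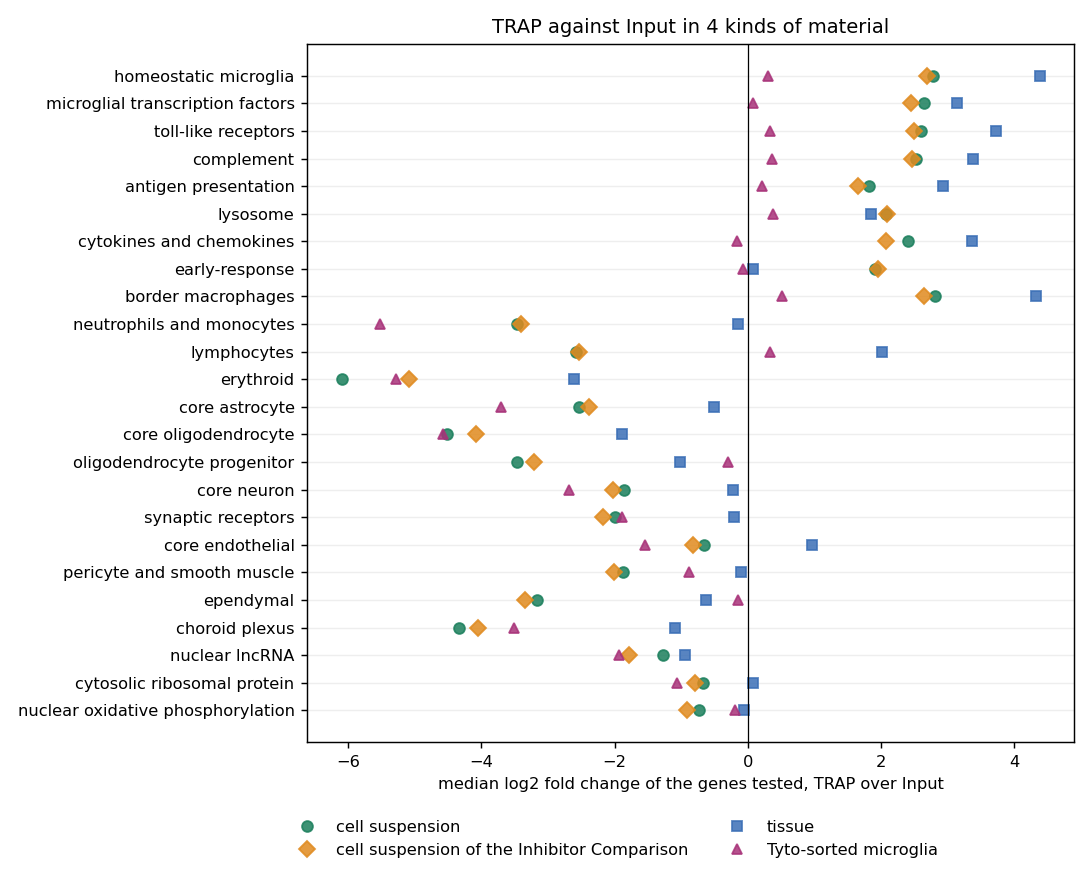
Median log2 fold change of TRAP over Input for each gene list (rows) in the cell suspension, the suspension of the Inhibitor Comparison, tissue and Tyto-sorted microglia. The 2 suspensions lie together, the homeostatic list lies highest in tissue (4.38) and near 0 in sorted microglia (0.30), and the glial lists lie lower in the suspension than in tissue.

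The microglial rise over Input was smaller in the suspension than in tissue. Each rise is a ratio to its own Input, and the 2 Inputs differ in make-up. In its Inhibitor Comparison the paper describes microglial transcripts as enriched in the cell preparations over Tissue-Input. The ratios therefore do not rank how well the pull-down worked, here or for the lists below. The part of the Input in these differences was not tested. The homeostatic list had a median of 2.78 in the suspension and 4.38 in tissue, and the interaction was called negative for 18 of its 22 genes and positive for none. For the study's microglial markers the medians were 2.68 and 3.80, with 165 of the interactions negative and 23 positive. All 15 border macrophage genes had a negative interaction. *Trem2* had a log2 fold change of 2.86 in the suspension and 4.64 in tissue (interaction -1.85, adjusted p = 8.39e-08), and *C1qa* had 2.75 and 4.64 (interaction -1.96, adjusted p = 2.38e-07). *Sirpa*, a receptor of neurons as well as of macrophages, went the other way, with 2.21 against 0.75 (interaction 1.38, adjusted p = 4.66e-08). *Rangap1* had 1.83 against 0.23.

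The endothelial list crossed 0 between the materials. Its median was -0.66 in the suspension and 0.97 in tissue, where 10 genes were higher, and 19 of its interactions were negative. *Slc2a1* had -0.67 and 0.71 (interaction -1.50, adjusted p = 9.91e-06). The astrocyte gene *Slc1a2* was called in opposite directions, at -1.91 in the suspension and 1.04 in tissue (interaction -3.04). *Spock1*, a neuronal proteoglycan, stood at 211 ± 9.09 CPM in tissue Input and 580.5 ± 105 CPM in tissue TRAP but at 112 ± 33.4 and 10.3 ± 7.8 CPM in the suspension (SD, n = 4 each), so its TRAP level was above Input in one material and below it in the other. For the values of both interactions, CPM were rescaled within the libraries of that fit, so they differ from the CPM of the same libraries given above. Altogether 39 genes were lower in the suspension and higher in tissue, and 2 the reverse.

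The early-response genes went against this order. Their median log2 fold change was 1.91 in the suspension and 0.08 in tissue, and the interaction was positive for 22 and negative for 1, with a median of 1.25. *Fos* stood at 35.4 ± 12.3 CPM in tissue Input, 30.4 ± 9.12 in tissue TRAP, 780.5 ± 137 in suspension Input and 3979 ± 486 in suspension TRAP (SD, n = 4 each). Its interaction was 2.55 (adjusted p = 5.4e-08). *Egr1* stood at 198 ± 33.1, 113 ± 24, 699 ± 127 and 2685 ± 779.9 CPM in the same order. Both the Input and the TRAP libraries were thus higher after dissociation, and the TRAP libraries by more. *Rgs14*, a signalling regulator that was also named by the size of its interaction, ran differently, at 40.4 ± 3.39, 21.8 ± 2.08, 4.67 ± 0.921 and 19.8 ± 2.65 CPM, so that its TRAP level was alike in both materials and its Input level fell. The part of the dissociation itself was not tested, since the tissue and the suspension differ in every step before lysis.

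**Figure D5:**
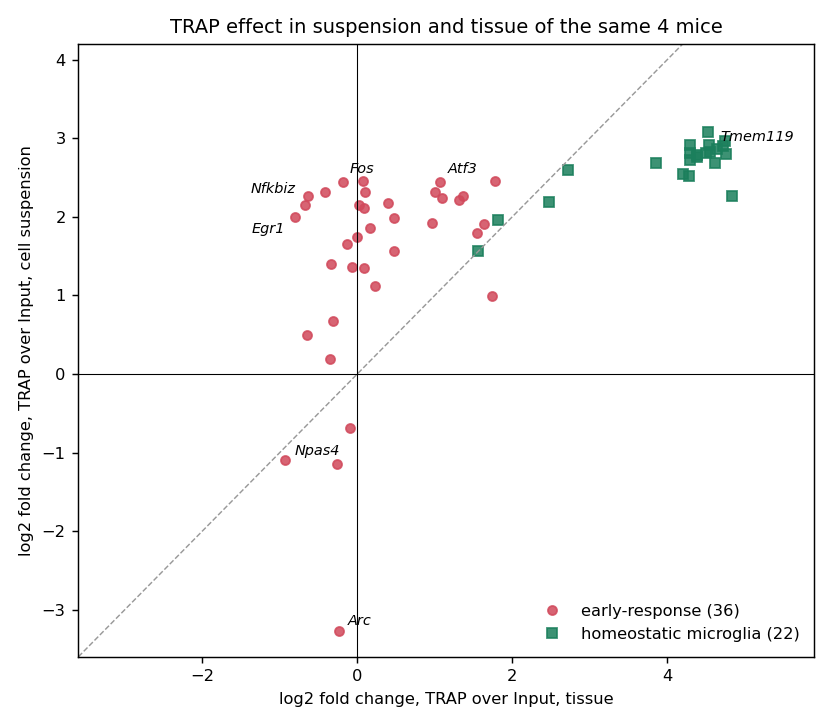
Log2 fold change of TRAP over Input in the cell suspension (vertical axis) against that in tissue (horizontal axis) for 36 early-response and 22 homeostatic genes where both were tested; each point is 1 gene and the dashed line marks equal values. Most early-response genes lie above the line and the homeostatic genes mostly below it.

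In microglia sorted from such suspensions on the Tyto, a cartridge cell sorter, few genes were higher in TRAP. These libraries came from 5 other mice (69, 822, 823, 945 and 991). The cells had been sorted on CD11b, CD45 and eGFP, so Input and TRAP both came from cells that were mostly microglia. There, 6 of 12088 genes were higher (0.0496%) and 1264 lower (10.5%). Of the genes called higher in the suspension 2 were higher and 24 lower in sorted microglia, and of those called lower 864 were lower there. The homeostatic list had a median of 0.30 after sorting and the microglial marker list 0.23, with 279 of its interactions positive (median 2.38). With few other cells in the sorted Input, TRAP had little room to raise microglial genes. The sign of these interactions was thus largely set by the sort and is no separate result. Over all genes the interaction, tested over 18 libraries, was positive for 2946 of 14965 (19.7%) and negative for 1488 (9.94%), with a median of 0.28. With DESeq2's size factors the median of all genes moved by -0.36 and the split became 1882 and 2245, so the balance of directions in this comparison rests on the scaling. With these factors the interaction of the microglial list still had a median of 2.03.

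Genes of other cells behaved in 2 ways. *Clu* had -2.47 in the suspension and -4.47 in sorted microglia, whereas *Stmn1* (-2.32 and -0.43, interaction -1.92) and *Rarres2* (-3.21 and -0.21, interaction -3.05) were called lower in the suspension and not after sorting. The core astrocyte list was lower for 14 of 17 tested genes after sorting (median -3.71) and the core oligodendrocyte list for 13 of 16 (median -4.57), close to or below their medians in the suspension (-2.54 and -4.52). *Mag*, a myelin protein named by the size of its interaction, went from 809 to 58.7 CPM in the suspension and from 58.2 to 43.7 CPM after sorting. The ribosomal protein genes had a median of -0.68 in the suspension, 0.08 in tissue and -1.07 after sorting, where 46 were lower. Among the 24 genes that rose here and fell there were 7 of the *Ugt1a* cluster of glucuronosyltransferases. *Ugt1a2* stood at 1.93 and 10 CPM in Input and TRAP of the suspension and at 11.4 and 4.87 ± 6.71 CPM after sorting, where single TRAP libraries ran from 0 to 13.2 CPM. Genes of this cluster share their last exons, so these counts may be 1 signal. *Actn2*, a muscle actinin, had 2.13 and 10.3 CPM in the suspension and 6.63 and 1.01 CPM after sorting, and it was also lower in TRAP in the suspension of the Inhibitor Comparison (-1.30).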

How the data were processed

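The authors sequenced directional, poly(A)-selected libraries and aligned them to mm10 in Strand NGS, with duplicate reads removed. The authors deposited the expected counts per gene (each an estimated count, as Strand NGS made it from the aligned reads), which were rounded to whole numbers here. The authors also deposited log2 values, scaled by DESeq2 size factors and set for each gene relative to the middle value of Tissue-Input, which served as an alternative. Genes with more than 5 counts in every library of at least 1 group were tested with edgeR 4.0.16 (R 4.3.3; TMM scaling, quasi-likelihood test, mouse as a block), and called at a Benjamini-Hochberg FDR below 0.1 and a fold change above 2. Limma 3.58.1 and DESeq2 1.42.0 gave alternatives. The numbers of the mice pair the libraries, since both fractions came from 1 suspension of 1 animal: deviations from the group means correlated at 0.301 to 0.396 within a mouse and at -0.196 to 0.0691 between mice. Replicates differed beyond counting noise (chi-square per gene 6.01 to 22.6). On simulated counts for the suspension comparison (14805 genes), 97% of 100 genes changed by 1.5 and 100% of 100 changed by 2.5 on the log2 scale were recovered. The simulation changed as many genes up as down, left out genes with few counts and had no differences between mice. It therefore cannot tell how the test and the scaling perform where so many genes change, and more of them downward.

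Named genes were up to 4 members of each list with the highest mean CPM, called members against their list's direction, all tag, receptor and ligand genes, the 12 strongest changes each way at 10 CPM or more, the 6 highest genes of each fraction and the 8 strongest interactions each way. The few others are members of these lists shown in the plot of single genes, or are said to be picked later. The lists and comparisons were chosen with earlier results of these data known. A few genes that the rule names are not reported here, and mitochondrially encoded genes were not analysed here. A count of 3 in 1 library, the detection floor, is about 0.205 CPM in Input and 0.202 CPM in TRAP.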

Additional observations from a re-analysis of the deposited data

Results flagged for a closer look

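In 29 of 390 groups of 4 libraries (7.44%), 1 mouse stood far from the other 3 by Dixon's criterion, which chance alone gives in about 1 group in 20. Mouse 946 was high for border macrophage genes, with *Cd163* at 55.8 CPM in Input and 463 CPM in TRAP, *F13a1* at 60.4 and 567 CPM, and in TRAP *Mrc1* at 1178, *Folr2* at 76.1 and *Cd209b* at 19 CPM. The same mouse was high in TRAP for *Apoe* (6727 CPM), *App* (943), *Gria4* (27.2), *Eef1a1* (2546), *Rpl4* (499) and *Il1a* (297). Mouse 949 was high for red cell genes in Input, with *Alas2* at 388, *Beta-s* at 2233 and *Hbb-b1* at 2208 CPM, and also for *C1qa* in TRAP (4944) and *Cspg4* in Input (31.4), and it was low for *P2rx7* in Input (60.7). Mouse 947 was low for *Cldn1* (5.27) and *Foxj1* (64.3) in Input and for *Clic6* (4.45) and *Unc93b1* (1671) in TRAP, and high for *Csf1* in Input (84.2) and for *Cd59a* (14.7), *Gas5* (25.8) and *Il7r* (51.4) in TRAP. The median log2 fold change of the ligand list was low in that mouse (-0.94). Mouse 948 was high for *Lpar5* in TRAP (65.1).

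The TRAP effect differed from that in tissue for 818 genes upward and 5065 downward, and from that in Tyto microglia for 2946 and 1488, by the interaction test. *Slc1a2* (interaction -3.04) and *Spock1* (-4.97) were called in opposite directions in the suspension and in tissue. *Actn2* (4.94), *Ugt1a1* (4.37), *Ugt1a10* (4.58), *Ugt1a2* (4.60), *Ugt1a5* (4.53), *Ugt1a6b* (4.39) and *Ugt1a9* (4.52) were called in opposite directions in the suspension and in Tyto microglia. The *Ugt1a* genes share exons, so their values are not separate observations.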

How the results depend on the processing

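The paired fit without the replicate block gave 2584 higher and 4589 lower genes in the suspension, and it changed no count of calls by more than 1.5 times in any of the 4 comparisons. Leaving out 1 mouse at a time gave 7075 to 7371 called genes (2468 to 2698 higher, 4524 to 4673 lower) in the suspension, 7034 to 7458 (2495 to 2823, 4539 to 4635) in the suspension of the Inhibitor Comparison, 5534 to 5891 (779 to 1255, 4606 to 4953) for the interaction with tissue and 4026 to 4632 (2043 to 3253, 1261 to 2023) for the interaction with Tyto microglia. With limma on the authors' log2 values 1404 genes were higher in the suspension. For the interaction with tissue, a minimum of 10 counts in every library of all groups gave 3778 calls (2930 lower) and no filter gave 1252 higher. That minimum drops a gene that is low in any 1 library, and 11968 genes were then tested. For the interaction with Tyto microglia, DESeq2's Wald test gave 1785 higher and 2256 lower, DESeq2's size factors gave 1882 and 2245, and the minimum of 10 counts gave 2825 calls (1520 higher). The lymphocyte list reversed to a median of 2.19 under that minimum, which leaves fewer of its genes. The list medians of the suspension were less steady than single genes. With limma on the authors' log2 values 38 moved and 2 stayed, as the homeostatic median did from 2.78 to 2.28. With the minimum of 10 counts 19 moved, 20 stayed and 1 reversed. Over all settings 75 medians moved, 364 stayed and 1 reversed. *Eif4a1* (0.99) and *Rhog* (0.97) fell just short of 2-fold under DESeq2's factors. Over the single genes named, 2369 values kept their direction and side of the threshold, 29 lost their call and 7 gained one, and none reversed. Depth limits mainly the genes near the floor, where fold changes depend on the prior count.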

Other observations

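Of the genes at low level, 3 with large changes were picked after their values were seen. *Ccl8*, a chemokine, stood at 1.49, 0.245, 0.408 and 0.117 CPM in Input and at 15, 4.08, 3.6 and 2.76 CPM in TRAP of mice 946 to 949, with mouse 946 highest in both (log2 fold change 3.55, SE 0.32, edgeR adjusted p = 9.03e-07). *Il10*, an anti-inflammatory cytokine, stood at 0.907, 0.613, 0.357 and 0.175 CPM in Input and at 9.46, 3.06, 3.67 and 3.19 CPM in TRAP (3.21, SE 0.356, edgeR adjusted p = 5.49e-06). *Tgm1*, a transglutaminase, went from 0.518, 0.552, 0.408 and 0.175 to 5.59, 6.21, 6.09 and 6.09 CPM (3.86, SE 0.335, edgeR adjusted p = 6.59e-07). For each of these 3 genes all TRAP libraries were above all Input libraries.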
